A study of Homo sapiens with 8 samples.

Results

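The genes described here are 37 human genes of antioxidant defence and of the pentose phosphate pathway, taken as a given list and read in 6 groups by role. These were 2 NRF2 regulators, 7 NRF2 targets, 4 superoxide dismutases and catalase, 8 peroxiredoxins and thioredoxins, 10 glutathione enzymes and 6 pentose phosphate enzymes. Each gene was read from the probe set that named that gene alone and had the highest mean signal over the arrays. Such a probe set was used for 36 of the 37 genes, and PRDX5 was not analysed here. All 36 had at least 2 arrays above the median of their array and were tested, among 14072 tested genes of 19775 with a probe set of their own.

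The study measured total RNA on 8 Affymetrix expression arrays and asked what ethanol did to human embryonic stem cells before and after they differentiated. The cells carry the label H9, an established embryonic stem cell line, were grown in mTeSR medium, and received ethanol or none over 24 h. The 4 groups of 2 arrays each were embryoid bodies with 20 mM ethanol, embryoid bodies with 0 mM, undifferentiated cells with 20 mM and undifferentiated cells with 0 mM. Embryoid bodies are floating aggregates in which the cells differentiate into a mixture of types.

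Cells remove superoxide with superoxide dismutases, which make hydrogen peroxide, and remove peroxide with catalase, glutathione peroxidases and peroxiredoxins. Glutathione peroxidases draw on glutathione and peroxiredoxins on thioredoxin, and the reductases that restore both consume NADPH, which the oxidative branch of the pentose phosphate pathway supplies. The transcription factor NRF2, encoded by NFE2L2, drives many of these genes. KEAP1 holds NRF2 back by directing its degradation until oxidants or electrophiles modify KEAP1.

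NRF2 binds DNA with small MAF proteins at antioxidant response elements, whose core reads TGACNNNGC, where N is any base. These letters were searched on both strands of RefSeq promoters of build GRCh38.p14, each reaching from 250 bases before to 50 bases after a gene's start. Promoters were matched by symbol for 30 of the 37 genes, and GSR, HMOX1, SOD1, TXN2, PRDX1, GSS and PRDX6 were not among them. The core was found in 10 of 39 promoters, belonging to 9 genes: GCLM, GPX2, GSTO1, GSTP1, KEAP1, ME1, PGD, RPE and TXNRD1. Of all 35116 promoters of the same length, 13.3% held it. The following 6 windows are shown for 3 NRF2 targets, 2 glutathione enzymes and 1 pentose phosphate enzyme, which include a gene called higher in embryoid bodies (GPX2), genes called lower and a gene not called (ME1). Each is written along the gene's strand with the core in capitals, which reads GCNNNGTCA where it lies on the opposite strand.
GCLM: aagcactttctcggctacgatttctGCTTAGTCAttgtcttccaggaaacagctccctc
TXNRD1: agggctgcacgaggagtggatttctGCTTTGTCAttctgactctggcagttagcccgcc
ME1: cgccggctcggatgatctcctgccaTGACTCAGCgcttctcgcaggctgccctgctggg
GPX2: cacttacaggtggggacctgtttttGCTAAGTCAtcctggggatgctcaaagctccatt
GSTP1: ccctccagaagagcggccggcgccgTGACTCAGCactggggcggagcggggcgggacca
PGD: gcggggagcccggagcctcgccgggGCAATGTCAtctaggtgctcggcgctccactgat

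The windows lie at chr1:93909431-93909489 (minus strand) for GCLM, chr12:104286905-104286963 (plus strand) for TXNRD1 and chr6:83431155-83431213 (minus strand) for ME1. Those of GPX2, GSTP1 and PGD lie at chr14:64942834-64942892 (minus strand), chr11:67583721-67583779 (plus strand) and chr1:10398838-10398896 (plus strand). The first base of the core stood at -34 from the start in GCLM, -102 in TXNRD1, -137 in ME1, -122 in GPX2, -66 in GSTP1 and -201 in PGD. A match of letters describes the sequence and is not evidence of binding, and no conclusion about NRF2 was drawn from promoters without one.

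Signals are given on a linear scale, computed from deposited log10 values with a step of 0.01, and changes are given as log2 differences ± the standard error of the fit. The median signal of an array was 102.3 on both arrays of embryoid bodies with ethanol and 85.11 on both without. It was 74.13 and 79.43 in undifferentiated cells with ethanol and 69.18 and 70.79 without. Transcripts that tell cell lines apart were read as a check on the labels, and 4 of the 8 arrays went against the stated line, all of them of 1 stage. Stage and line therefore cannot be told apart, and no comparison of the stages could be made without those arrays. Each ethanol comparison stayed within 1 stage. The labels call the arrays duplicates without naming separate cultures, so p-values measure the spread between these samples, which may be technical, and their number limits the precision.

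Markers of cell types differed between the stages, and the summed signals of some lists also differed with ethanol. With ethanol, 1 marker, of fetal liver and yolk sac in embryoid bodies, was called higher. No other marker on the lists was called for ethanol in either stage. All 7 tested fetal liver and yolk sac markers of 8 listed passed as higher in embryoid bodies at both doses, and the summed signal of the list was 47070 to 48710 in embryoid bodies with ethanol, 37610 to 38040 in those without, 763 to 1117 in undifferentiated cells with ethanol and 782.5 to 891.3 in those without. The 7 mesenchyme markers summed to 54630 to 55210, 31860 to 32070, 4679 to 6116 and 4654 to 4863 in the same 4 groups. The 7 pluripotency markers read, of 8 listed, summed to 60850 to 63400, 69930 to 71380, 98930 to 102900 and 96370 to 99610. No erythroid marker lay above the array median on both arrays of either group of embryoid bodies. The 5 read of 8 listed summed to 183.3 to 264.7 in embryoid bodies with ethanol and 129 to 206.8 in those without. Of 2 tested erythroid markers, 1 was called higher in embryoid bodies at 0 mM, and neither passed at 20 mM. Of 6 tested neural markers of 7 listed, 5 passed as higher in embryoid bodies at both doses and 1 as lower at 20 mM, and the list summed to 19120 to 20370, 21560 to 22160, 17480 to 18090 and 17400 to 17740 in the same 4 groups. The cardiac muscle list, with 1 of 4 tested markers called higher at each dose, summed to 560.3 to 581.1, 542.3 to 570.3, 225.3 to 242.2 and 204.8 to 239.1. Of 2 tested macrophage markers 1 was called higher and 1 lower at each dose, and that list summed to 286.1 to 315.1, 240.8 to 296, 376.8 to 383.6 and 315.6 to 356.3. The part of cell composition in the results below was not tested.

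Embryoid bodies differed from undifferentiated cells in 26 of the 36 genes at 20 mM ethanol, 8 higher and 18 lower, and in 20 at 0 mM, 7 higher and 13 lower (limma, adjusted p under 0.05 over all tested genes). Of all 14072 genes 56.3% were called at 20 mM, 29.2% higher and 27.1% lower, and 52.8% at 0 mM, 28% higher and 24.7% lower. The 20 calls at 0 mM were thus near the share of all genes. The 18 lower calls at 20 mM were above the share of all genes as deposited, but under cyclic loess 8 of the 36 were called lower, against 26.5% of all genes, and 9 higher, against 27.3%. Under quantile normalisation 14 were lower, against 30.7% of all genes. The 7 genes higher at 0 mM were all among the 8 higher at 20 mM, where HMOX1 joined them. Of the lower genes 12 were shared, which is 12 of 18 at 20 mM and 12 of 13 at 0 mM. All embryoid body arrays lay above all undifferentiated ones for 9 genes at 20 mM and 11 at 0 mM, and below them for 21 and 20, where 39.6% and 40.3% of all genes lay above and 37.6% and 38.1% below. In these bulk samples, fewer cells of a type and less RNA per cell cannot be told apart.

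The set was bright, and bright genes as a whole were lower in embryoid bodies. The tested genes were divided by mean signal into 10 bins of equal size, and 15 of the 36 genes lay in the brightest bin, with mean signals of 4193 to 35480. In that bin 56% of all genes were called lower at 20 mM and 45.8% at 0 mM, with median changes of -0.30 and -0.20. Of the 15 set genes there, 13 were called lower at 20 mM and 8 at 0 mM. Each change below is therefore also set against the median of the genes in the same signal bin.

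**Figure D1:**
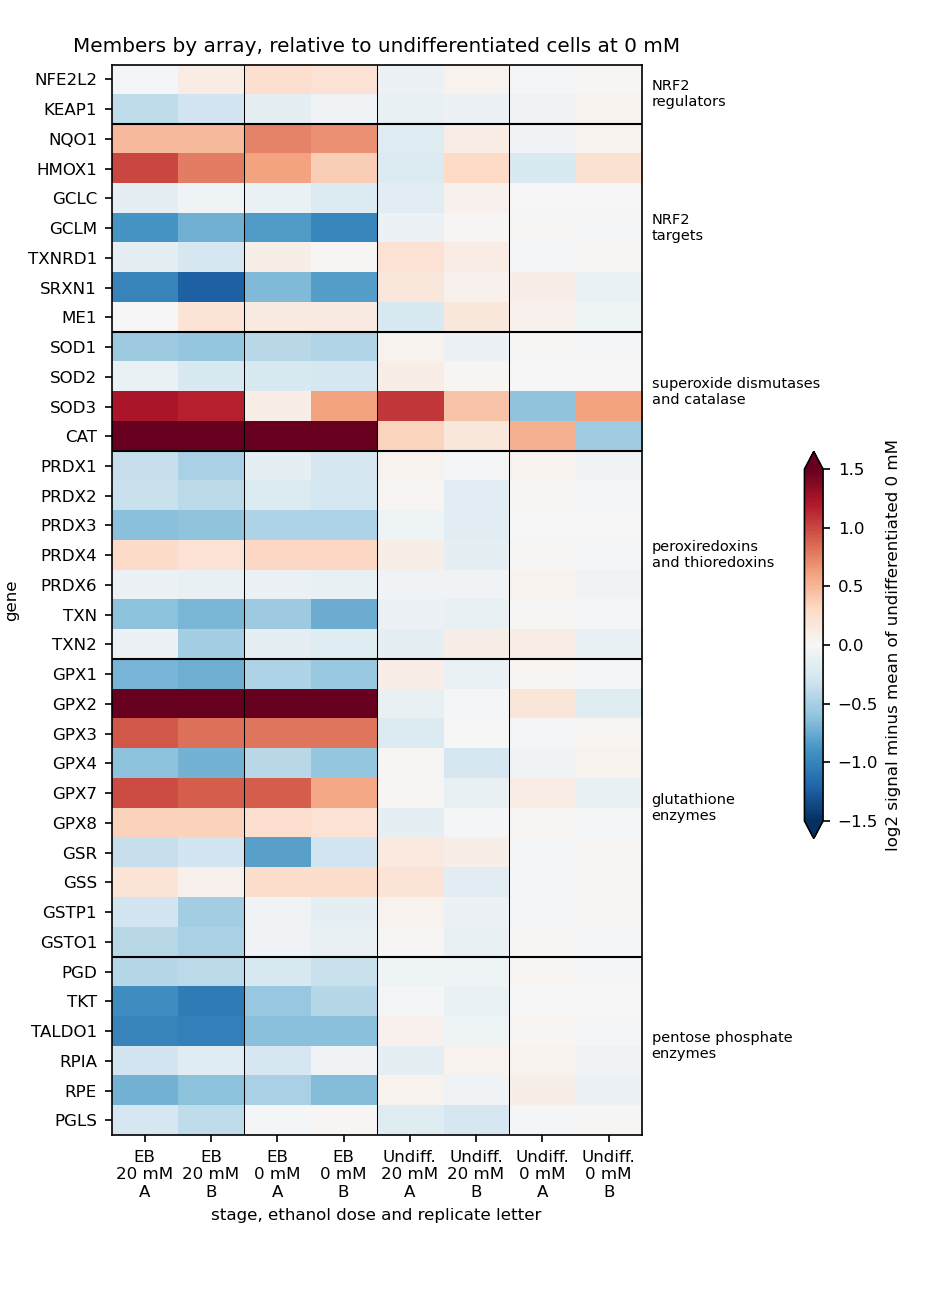
The 36 genes (rows, by role) on each of the 8 arrays (columns, by stage, ethanol dose and replicate letter), coloured by log2 signal minus the mean of the 2 undifferentiated arrays at 0 mM, with the scale ending at 1.5 in both directions. CAT and GPX2 pass the upper end on all 4 embryoid body arrays, where GCLM, SRXN1, TKT and TALDO1 are blue.

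Of the 2 NRF2 regulators, KEAP1 was called between the stages, at 20 mM, and NFE2L2 was not called. NFE2L2 had signals of 2455 and 2692 in embryoid bodies with ethanol and 2951 and 2884 without, against 2344 and 2570 in undifferentiated cells with ethanol and 2455 and 2512 without. Its stage change was 0.07 ± 0.08 at 20 mM and 0.23 ± 0.08 at 0 mM (adjusted p = 0.531 and 0.0595). KEAP1 had signals of 1148 and 1230 in embryoid bodies with ethanol and 1349 and 1445 without, against 1380 and 1413 in undifferentiated cells with ethanol and 1445 and 1549 without. KEAP1 fell by 0.23 ± 0.08 at 20 mM (adjusted p = 0.0496), where its arrays did not overlap, and its change at 0 mM was -0.10, with overlapping arrays. The KEAP1 call held under 5 of 18 alternatives, with an adjusted p of up to 0.199.

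NRF2 targets moved in both directions between the stages. At 20 mM, 2 of the 7 rose and 3 fell, and at 0 mM 1 rose and 2 fell. Their median change was -0.05 at 20 mM and 0.05 at 0 mM, against 0.02 for all tested genes at either dose, and the median of differences from genes of like signal was 0.03 and 0.13. Median centring made the group median at 0 mM negative and cyclic loess made that at 20 mM positive.

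NQO1, which encodes a quinone reductase, rose in embryoid bodies. Its signals were 3236 and 3236 in embryoid bodies with ethanol and 3890 and 3715 without, against 2042 and 2512 in undifferentiated cells with ethanol and 2239 and 2399 without. Every embryoid body array lay above every undifferentiated array, by 0.51 ± 0.11 at 20 mM and 0.71 ± 0.11 at 0 mM (1.43-fold and 1.64-fold; adjusted p = 0.0104 and 0.00349). Median centring ended the NQO1 call at 20 mM, with a change of 0.0997 (adjusted p = 0.549). HMOX1, the heme oxygenase that breaks down heme, had signals of 724 and 617 in embryoid bodies with ethanol and 550 and 468 without, against 316 and 447 in undifferentiated cells with ethanol and 309 and 427 without. The embryoid body arrays were again all higher, and HMOX1 rose at 20 mM by 0.83 ± 0.23 (adjusted p = 0.0246), while the change of 0.48 ± 0.23 at 0 mM did not pass (adjusted p = 0.129). The HMOX1 call ended without either 20 mM embryoid body array or the 20 mM undifferentiated replicate A, with changes of 0.58 to 0.95, and under median centring (0.42, adjusted p = 0.179). It also ended without a filter and with the 20 mM arrays alone, at the same change (adjusted p = 0.0514 and 0.0502).

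GCLM and SRXN1 fell. GCLM encodes the modifier subunit of glutamate-cysteine ligase, which begins glutathione synthesis, and had signals of 977 and 1096 in embryoid bodies with ethanol and 1000 and 912 without, against 1698 and 1820 in undifferentiated cells with ethanol and 1820 and 1778 without. Its change was -0.76 ± 0.09 at 20 mM and -0.91 ± 0.09 at 0 mM (1.7-fold and 1.88-fold lower; adjusted p = 0.00118 and 0.000786). SRXN1 encodes sulfiredoxin, which repairs overoxidised peroxiredoxins, and had signals of 447 and 380 in embryoid bodies with ethanol and 562 and 501 without, against 1000 and 933 in undifferentiated cells with ethanol and 955 and 832 without. SRXN1 was 2.34-fold lower at 20 mM (log2 change -1.23 ± 0.12, adjusted p = 0.000627) and 1.68-fold lower at 0 mM (-0.75 ± 0.12, adjusted p = 0.00405). Neither gene's stage arrays overlapped, and genes of like signal had median changes of -0.05 and 0.07 at 20 mM in the bins of GCLM and SRXN1.

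The other 3 targets shifted less. GCLC, the catalytic partner of GCLM, had signals of 1660 and 1738 in embryoid bodies with ethanol and 1698 and 1585 without, against 1622 and 1905 in undifferentiated cells with ethanol and 1820 and 1820 without. Its change was -0.05 at 20 mM and -0.15 at 0 mM, and neither passed. The cytosolic malic enzyme ME1, another source of NADPH, ranged over 1096 to 1259 in embryoid bodies and 933 to 1230 in undifferentiated cells and also did not pass, at 0.13 for each dose. TXNRD1, which encodes the cytosolic thioredoxin reductase, fell at 20 mM by 0.37 ± 0.08 (adjusted p = 0.009) and stood at 0.05 at 0 mM (adjusted p = 0.612). Its signal bin had a median of -0.30 at 20 mM. The TXNRD1 call ended under cyclic loess (-0.16, adjusted p = 0.11), under quantile normalisation (-0.22, adjusted p = 0.052), with the mean of its probe sets (adjusted p = 0.585) and without the 20 mM embryoid body replicate B (adjusted p = 0.0528).

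**Figure D2:**
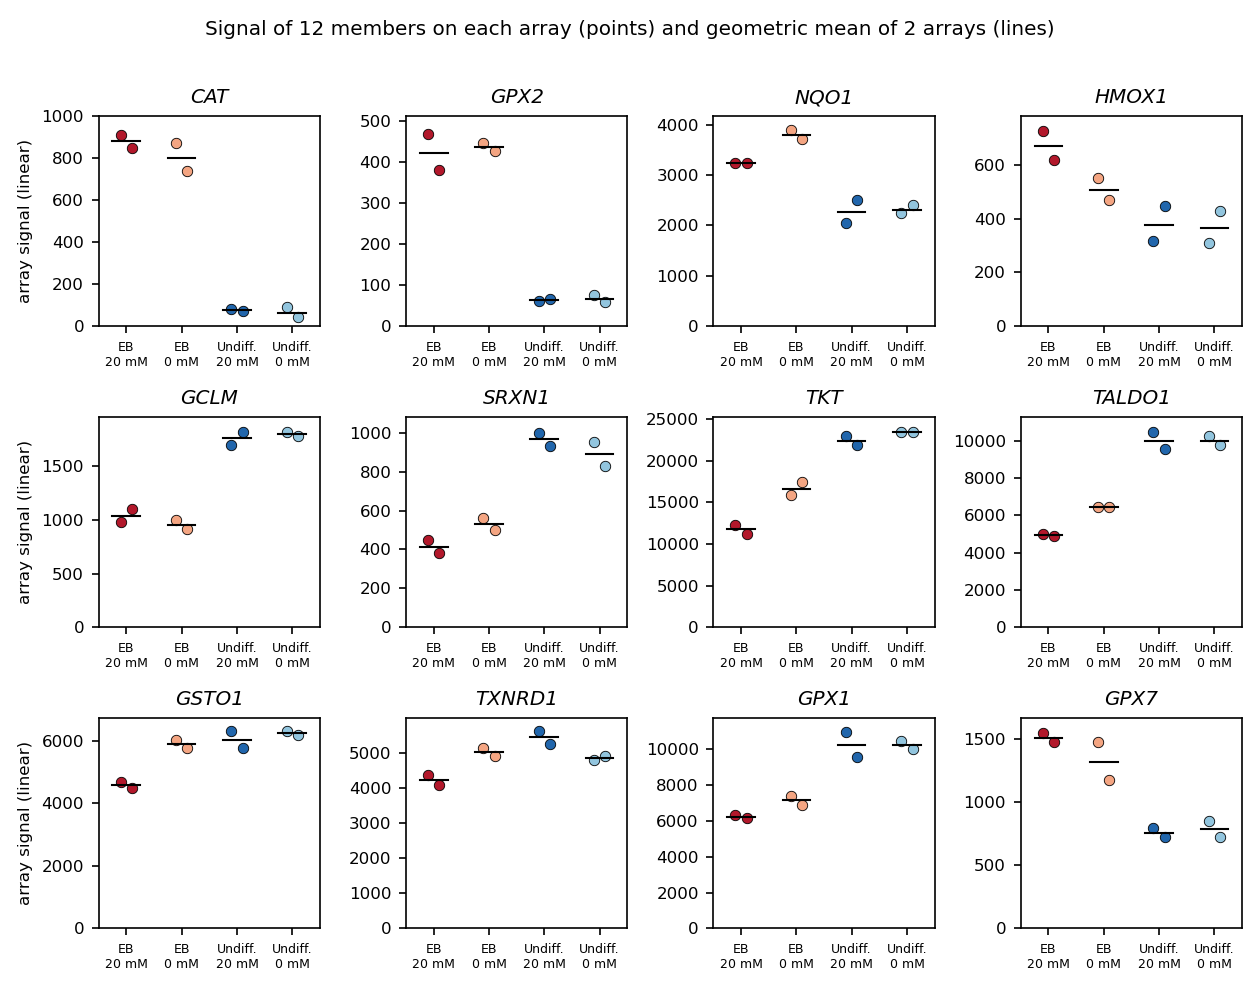
Linear array signal of 12 genes in embryoid bodies at 20 and 0 mM ethanol and undifferentiated cells at 20 and 0 mM (points: arrays; lines: geometric mean of 2 arrays; each vertical axis starts at 0 and has its own scale). CAT and GPX2 are high in all 4 embryoid body arrays, TKT and TALDO1 are lowest in embryoid bodies with ethanol, and TXNRD1 is highest in undifferentiated cells with ethanol.

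Catalase rose in embryoid bodies. CAT, which decomposes hydrogen peroxide in peroxisomes, had signals of 912 and 851 in embryoid bodies with ethanol and 871 and 741 without, against 81.3 and 72.4 in undifferentiated cells with ethanol and 93.3 and 44.7 without. In each pair of undifferentiated arrays 1 CAT signal lay below the median of its array, and the 2 arrays at 0 mM differed widely, so the size of the change has only a bound. With the array median taken as the lowest level read, mean CAT signal was at least 11.4-fold higher at 20 mM and at least 9.89-fold higher at 0 mM (adjusted p = 0.000519 and 0.000546 by limma on the signals as deposited). This bound leaves out the spread between arrays. The 95% interval of the log2 change as deposited began at 2.71 at 20 mM and 2.82 at 0 mM. Over the alternatives the lowest log2 change was 2.34 at 20 mM and 3.11 at 0 mM.

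The superoxide dismutases did not follow catalase. SOD1, the cytosolic copper-zinc enzyme, had signals of 10230 and 10000 in embryoid bodies with ethanol and 11220 and 10960 without, against 15490 and 14130 in undifferentiated cells with ethanol and 15140 and 14790 without. SOD1 fell by 0.55 ± 0.07 at 20 mM and by 0.43 ± 0.07 at 0 mM (adjusted p = 0.00175 and 0.00482), below the medians of its bin by 0.25 and 0.23. The mitochondrial manganese enzyme SOD2 had signals of 933 to 1047 in embryoid bodies and 1122 to 1202 in undifferentiated cells, a separation without overlap, and fell by 0.23 at 20 mM and 0.25 at 0 mM (adjusted p = 0.0416 and 0.0354). The SOD2 call at 0 mM ended when any of the 4 arrays at 0 mM was left out, with changes of -0.27 to -0.23. It also ended without a filter (adjusted p = 0.0746) and when every gene was read as the mean of its probe sets (adjusted p = 0.0564). SOD2 was read from the 1 probe set that named it alone, and its own change was the same in these 2 fits. The SOD2 call at 20 mM held under 6 of 18 alternatives. The extracellular enzyme SOD3 was dim and scattered, at 166 and 159 in embryoid bodies with ethanol and 75.9 and 107 without, against 148 and 95.5 in undifferentiated cells with ethanol and 46.8 and 107 without, and it did not pass in any comparison.

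Among peroxiredoxins and thioredoxins, 4 of the 7 tested genes fell and 1 rose at 20 mM, and 2 fell and 1 rose at 0 mM. Their median change was -0.30 and -0.20, which is the median of all genes in the brightest bin at each dose, where 6 of the 7 lie. Relative to genes of like signal the median was -0.13 and -0.03, and cyclic loess brought the group median to -0.05 and -0.02. The group as a whole thus stood near other bright genes, while single members departed from them in both directions.

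PRDX3, the mitochondrial peroxiredoxin, had signals of 7943 and 8128 in embryoid bodies with ethanol and 8913 and 8913 without, against 11750 and 10960 in undifferentiated cells with ethanol and 12300 and 12300 without. It fell by 0.50 ± 0.07 at 20 mM and by 0.47 ± 0.07 at 0 mM (adjusted p = 0.00182 and 0.00274). A second, dim PRDX3 probe set (mean signal 112.5) went the other way, at 0.86 and 0.78. Thioredoxin itself, TXN, had signals of 10960 and 10470 in embryoid bodies with ethanol and 11480 and 10000 without, against 15850 and 15490 in undifferentiated cells with ethanol and 16980 and 16600 without. TXN fell by 0.55 ± 0.09 at 20 mM and by 0.65 ± 0.09 at 0 mM (adjusted p = 0.00324 and 0.00207), with no overlap between the stages. Cyclic loess ended the TXN call at 20 mM, with a change of -0.22 (adjusted p = 0.0595).

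PRDX4, the peroxiredoxin of the endoplasmic reticulum, was the gene of this group called higher. Its signals were 16220 and 15490 in embryoid bodies with ethanol and 16600 and 16600 without, against 14130 and 12020 in undifferentiated cells with ethanol and 13490 and 13180 without. The change was 0.28 ± 0.09 at 20 mM and 0.32 ± 0.09 at 0 mM (adjusted p = 0.045 and 0.0335), against medians of -0.30 and -0.20 in its bin, and it turned to -0.13 at 20 mM under median centring. The PRDX4 calls were fragile, since they held under 6 of 18 alternatives at 20 mM and 10 of 18 at 0 mM, and leaving out either array of a compared group ended them except for the 20 mM undifferentiated replicate A.

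The remaining members of the group shifted less. PRDX1, an abundant cytosolic peroxiredoxin, had signals of 16600 to 20890 in embryoid bodies and 22390 to 23990 in undifferentiated cells, and fell at 20 mM by 0.43 (adjusted p = 0.00729), but that call ended under quantile normalisation (-0.18, adjusted p = 0.0652) and cyclic loess (-0.05, adjusted p = 0.57). PRDX2 ranged over 10960 to 12590 in embryoid bodies and 12880 to 14790 in undifferentiated cells and fell at 20 mM by 0.30 (adjusted p = 0.0336). The PRDX2 call held under 6 of 18 alternatives, and its change was -0.03 under quantile normalisation, 0.02 under cyclic loess and 0.14 with the mean of its probe sets. Both were close to their bin, at -0.13 and 0 relative to its median. PRDX6, which also acts on phospholipid peroxides, spanned 12300 to 12590 in embryoid bodies and 12880 to 13800 in undifferentiated cells and did not pass, at -0.05 and -0.10. The mitochondrial thioredoxin TXN2, at 1122 to 1514 in embryoid bodies and 1445 to 1738 in undifferentiated cells, did not pass either.

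Glutathione enzymes split by enzyme. At 20 mM 4 of the 10 rose and 4 fell, and at 0 mM 4 rose and 3 fell. The 4 that rose at both doses were the peroxidases GPX2, GPX3, GPX7 and GPX8, and the peroxidases GPX1 and GPX4 fell at both. The group median was -0.13 at 20 mM and 0.07 at 0 mM, and the median of differences from genes of like signal was 0.06 and 0.21. Quantile normalisation and cyclic loess made the group median at 20 mM positive, and median centring made that at 0 mM negative.

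GPX2, a peroxidase first described in the gut epithelium, had signals of 468 and 380 in embryoid bodies with ethanol and 447 and 427 without, against 61.7 and 66.1 in undifferentiated cells with ethanol and 75.9 and 58.9 without. GPX2 rose, and every embryoid body array was far above every undifferentiated one. In undifferentiated cells 3 of its 4 arrays lay below the array median, so the size of the change has only a bound, and the filter admitted GPX2 through embryoid bodies, which favours a higher value there. With the array median taken as the lowest level read, mean GPX2 signal was at least 5.5-fold higher at 20 mM and at least 5.96-fold higher at 0 mM (adjusted p = 0.000122 and 0.000134 by limma on the signals as deposited). This bound also leaves out the spread between arrays. For GPX2 the 95% interval of the log2 change as deposited began at 2.34 at 20 mM and 2.32 at 0 mM. The mean of its 2 probe sets, the other of which lay below the array median on all 8 arrays, gave 1.74 at 20 mM (adjusted p = 0.0383) and ended the call at 0 mM (1.54, adjusted p = 0.0597). GPX3, the peroxidase secreted into plasma, had signals of 1479 and 1380 in embryoid bodies with ethanol and 1349 and 1349 without, against 676 and 776 in undifferentiated cells with ethanol and 759 and 794 without. GPX3 rose by 0.98 ± 0.09 at 20 mM and 0.80 ± 0.09 at 0 mM (adjusted p = 0.000513 and 0.00117), with all embryoid body arrays higher.

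GPX7 and GPX8 are peroxidases of the endoplasmic reticulum. GPX7 had signals of 1549 and 1479 in embryoid bodies with ethanol and 1479 and 1175 without, against 794 and 724 in undifferentiated cells with ethanol and 851 and 724 without, and rose 2-fold at 20 mM (adjusted p = 0.00203) and 1.68-fold at 0 mM (adjusted p = 0.00674). GPX8 had signals of 4571 and 4571 in embryoid bodies with ethanol and 4266 and 4169 without, against 3236 and 3548 in undifferentiated cells with ethanol and 3631 and 3548 without. GPX8 rose by 0.43 ± 0.07 at 20 mM (adjusted p = 0.00413) and by 0.23 ± 0.07 at 0 mM (adjusted p = 0.0407), where its bin had medians of -0.23 and -0.15. The GPX8 call at 0 mM held under 8 of 18 alternatives and its change turned to -0.05 under median centring, which also ended the call at 20 mM (0.0166, adjusted p = 0.893).

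GPX1 and GPX4 are selenium-dependent peroxidases, GPX1 of soluble peroxides and GPX4 of lipid peroxides in membranes. GPX1 had signals of 6310 and 6166 in embryoid bodies with ethanol and 7413 and 6918 without, against 10960 and 9550 in undifferentiated cells with ethanol and 10470 and 10000 without. It fell by 0.71 ± 0.09 at 20 mM and by 0.51 ± 0.09 at 0 mM (adjusted p = 0.00146 and 0.00555), without overlap. GPX4 had signals of 6457 and 6026 in embryoid bodies with ethanol and 7413 and 6607 without, against 10000 and 8318 in undifferentiated cells with ethanol and 9550 and 10230 without. GPX4 fell by 0.55 ± 0.12 at 20 mM and by 0.50 ± 0.12 at 0 mM (adjusted p = 0.0098 and 0.0152). The GPX4 call at 0 mM ended without the embryoid body replicate B or the undifferentiated replicate B at that dose (adjusted p = 0.0828 and 0.0707), under quantile normalisation (-0.33, adjusted p = 0.053) and under cyclic loess (-0.33, adjusted p = 0.0506). At 20 mM it ended under cyclic loess (-0.28, adjusted p = 0.0781) and without the embryoid body replicate B (adjusted p = 0.056).

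Of the other 4 glutathione enzymes, GSR was called lower at 0 mM and GSTP1 and GSTO1 at 20 mM, and GSS was not called. Glutathione reductase, GSR, had signals of 1413 and 1479 in embryoid bodies with ethanol and 1023 and 1479 without, against 1995 and 1905 in undifferentiated cells with ethanol and 1778 and 1820 without. GSR fell at 0 mM by 0.55 ± 0.17 (adjusted p = 0.0382), where 1 array was far lower than its duplicate and without it the change was -0.28 (adjusted p = 0.0727), and its change of -0.43 at 20 mM did not pass (adjusted p = 0.0742). The GSR call held under 9 of 18 alternatives. The conjugating enzymes GSTP1 and GSTO1 fell at 20 mM by 0.38 and 0.40 (adjusted p = 0.0232 and 0.00695) and stood at -0.10 and -0.08 at 0 mM. Relative to the median of their signal bin, the changes at 20 mM were -0.08 for GSTP1 and -0.10 for GSTO1. Cyclic loess ended the GSTO1 call (-0.18, adjusted p = 0.0853) and the GSTP1 call (-0.0455, adjusted p = 0.708). Quantile normalisation (-0.12, adjusted p = 0.284) and dropping either embryoid body replicate B (-0.27, adjusted p = 0.104) or undifferentiated replicate A (-0.32, adjusted p = 0.0926) at 20 mM also ended the GSTP1 call. Glutathione synthetase, GSS, had signals of 2188 and 1995 in embryoid bodies with ethanol and 2291 and 2291 without, against 2188 and 1698 in undifferentiated cells with ethanol and 1862 and 1950 without. At 0 mM both embryoid body arrays were above both undifferentiated ones, with a change of 0.27 ± 0.13 that did not pass (adjusted p = 0.138), and at 20 mM the arrays overlapped (0.12, adjusted p = 0.484).

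None of the 6 pentose phosphate enzymes of the set was higher in embryoid bodies by its reported probe set. At both doses 4 of the 6 fell, namely TKT, TALDO1, RPE and PGD, and RPIA and PGLS did not pass. The group median was -0.51 at 20 mM and -0.39 at 0 mM, and -0.28 and -0.22 relative to genes of like signal. It stayed negative under each of the other 3 scalings, at -0.92 to -0.33 for 20 mM and -0.67 to -0.20 for 0 mM.

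Transketolase, TKT, and transaldolase, TALDO1, shuttle carbon units between sugar phosphates in the branch that links the pathway to glycolysis. TKT had signals of 12300 and 11220 in embryoid bodies with ethanol and 15850 and 17380 without, against 22910 and 21880 in undifferentiated cells with ethanol and 23440 and 23440 without. It was 1.91-fold lower at 20 mM (log2 change -0.93 ± 0.08, adjusted p = 0.000467) and 1.41-fold lower at 0 mM (-0.50 ± 0.08, adjusted p = 0.00457). TALDO1 had signals of 5012 and 4898 in embryoid bodies with ethanol and 6457 and 6457 without, against 10470 and 9550 in undifferentiated cells with ethanol and 10230 and 9772 without. TALDO1 was 2.02-fold lower at 20 mM (log2 change -1.01 ± 0.08, adjusted p = 0.000253) and 1.55-fold lower at 0 mM (-0.63 ± 0.08, adjusted p = 0.00137). Of the 4 groups, embryoid bodies with ethanol were lowest for both genes, without overlap with embryoid bodies at 0 mM. The other two TKT probe sets had changes of -1.08 and -0.68 at 20 mM and -0.90 and -0.47 at 0 mM.

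RPE, the epimerase of ribulose phosphate, had signals of 2138 and 2291 in embryoid bodies with ethanol and 2512 and 2239 without, against 3631 and 3388 in undifferentiated cells with ethanol and 3715 and 3311 without. It fell by 0.66 ± 0.10 at 20 mM and 0.56 ± 0.10 at 0 mM (adjusted p = 0.00267 and 0.00554), and the mean of its probe sets ended the call at 0 mM (-0.34, adjusted p = 0.179). That mean held an RPE probe set of mean signal 12.55 at 0.65, and the others not reported were at -0.75 and -0.68. PGD, the phosphogluconate dehydrogenase that yields NADPH, had signals of 5012 and 5129 in embryoid bodies with ethanol and 5754 and 5370 without, against 6457 and 6457 in undifferentiated cells with ethanol and 6918 and 6607 without. PGD fell by 0.35 ± 0.07 and 0.28 ± 0.07 (adjusted p = 0.00804 and 0.0188), close to its bin, and cyclic loess ended both calls (-0.12 and -0.14). The PGD call at 0 mM also ended under quantile normalisation (-0.14) and with the mean of its probe sets (0.0277), where the others had mean signals of 66.26 and 47.32. It ended as well without either the 0 mM undifferentiated replicate A or embryoid body replicate B, with changes of -0.25 and -0.23. The lactonase PGLS stood at -0.10 at 20 mM and 0 at 0 mM, and the isomerase RPIA at -0.18 and -0.15. The other PGLS probe sets, from brightest to dimmest, had changes of -0.18, 1.61 and 0.08 at 20 mM and 0.17, 1.20 and 0.28 at 0 mM.

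**Figure D3:**
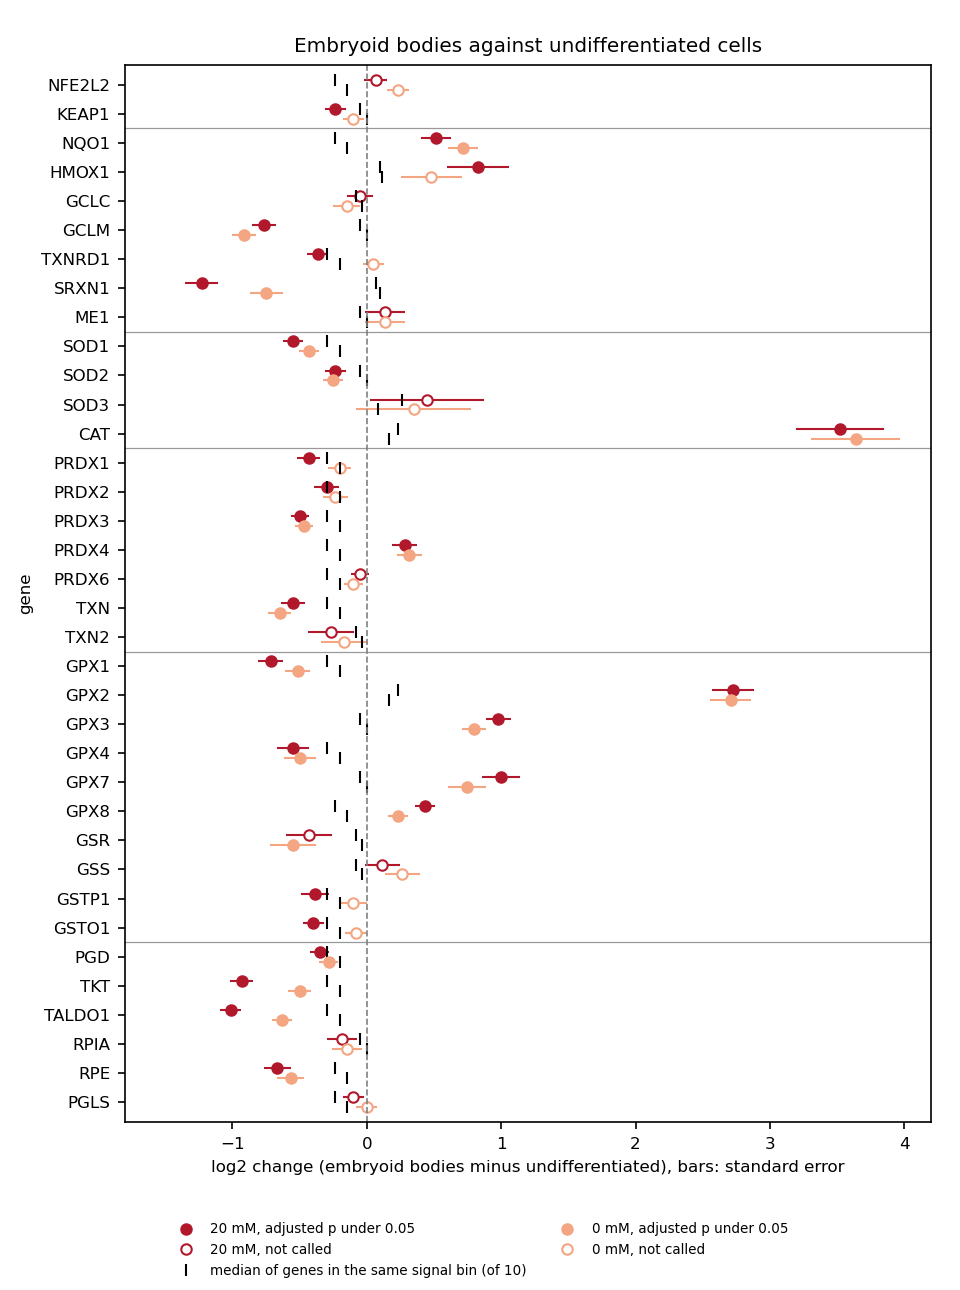
Log2 change of each of the 36 genes in embryoid bodies relative to undifferentiated cells, at 20 mM (dark red) and 0 mM ethanol (orange), with standard errors; filled points had adjusted p under 0.05 and vertical ticks mark the median of all genes in the same signal bin (of 10). CAT and GPX2 lie far to the right at both doses, where their undifferentiated signals are near or below the array median, and no pentose phosphate enzyme is right of 0.

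Genes with and without the promoter letters were called in both directions. At 20 mM 1 of the 9 genes with the antioxidant core, GPX2, was called higher and 7 lower, and at 0 mM 1 was called higher and 3 lower. Among the 20 tested genes whose promoter lacked the letters, 6 were higher and 9 lower at 20 mM, and 6 higher and 8 lower at 0 mM. The difference between the counts with and without the letters was not tested. Of all tested genes 29.2% were called higher and 27.1% lower at 20 mM, and 28% and 24.7% at 0 mM. GSTO1, GSTP1, PGD and TXNRD1 lay in the brightest bin, where 56% of all genes were called lower at 20 mM. Cyclic loess ended the 20 mM calls of these genes and of KEAP1.

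Ethanol gave no call among the 36 genes in embryoid bodies, where 0.0711% of all genes were called, 0.0426% higher and 0.0284% lower. An unadjusted p under 0.05 by limma was found for 9 of the 36, and for 3137 of all 14072 genes. The smallest adjusted p among the 36 was 0.0794. The median change was -0.13, against 0.02 over all tested genes, and -0.04 relative to genes of like signal. Of the 36 values 24 were negative, 10 positive and 2 at 0. The arrays did not overlap for 19 genes lower with ethanol and 4 higher, where 28.1% and 29.4% of all genes showed this. In data simulated for this comparison over 14072 genes, the test recovered 57.6% of log2 changes of 1 and 18.2% of changes of 0.5. Most changes of 0.5 thus went without a call in those data. These shares describe all genes together, and the recovery for the 36 genes was not tested.

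The pentose phosphate genes TKT, TALDO1 and PGLS and 3 thiol genes had the smallest p-values for ethanol in embryoid bodies. TKT, at the signals given above, changed by -0.50 ± 0.08 (adjusted p = 0.0794) and TALDO1 by -0.38 ± 0.08 (adjusted p = 0.0926). The other two TKT probe sets changed by -0.27 and -0.17, and when TKT was read from the dimmer of these, its only one with neither an _x_at nor an _s_at suffix, the adjusted p was 0.569. GSTO1, a thiol transferase of the glutathione system, had signals of 4677 and 4467 with ethanol and 6026 and 5754 without, a change of -0.37 ± 0.08 (adjusted p = 0.0988). PGLS had signals of 2512 and 2291 with ethanol and 2951 and 3020 without, a change of -0.32 ± 0.08 (adjusted p = 0.116). Of the other 3 PGLS probe sets, 1 was at -0.25 and 2 went the other way, at 0.25 and 0.27, and the mean of all 4 gave -0.0125 (adjusted p = 0.972). TXNRD1 was at -0.25 ± 0.08 and SRXN1 at -0.37 ± 0.12 (adjusted p = 0.155 and 0.172). In each of these 6 genes both ethanol arrays lay below both arrays without ethanol, and none passed.

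By their reported probe sets, all 6 pentose phosphate genes had negative values with ethanol in embryoid bodies, from -0.50 to -0.08. All 6 lay below the median of their bin, RPE by 0.0166. Other RPE probe sets were at 0.17, at 0 and, for that of mean signal 12.55, at -0.96. Other PGD probe sets, of mean signal 66.26 and 47.32, were at 0.42 and 0.13. The group median was -0.22, or -0.14 relative to genes of like signal, and it was -0.49 to -0.15 under the other scalings. NRF2 targets had 3 positive and 4 negative values with a median of -0.03, with HMOX1 at 0.40 ± 0.23 and GCLM at 0.12. Peroxiredoxins and thioredoxins had 5 negative values of 7 and a median of -0.13, which the brightest bin nearly matched at -0.10. Glutathione enzymes had 6 negative values of 10 and a median of -0.09, with GPX7 at 0.20, GSR at 0.23 and GSTP1 at -0.30. The GSR arrays overlapped, and its other probe set was at -0.27. The superoxide dismutases and catalase had a median of 0.11, with SOD3 at 0.85 ± 0.43 and CAT at 0.13 ± 0.33, and median centring made that median negative.

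A filter at the 75th percentile called TKT, TALDO1 and GSTO1 lower with ethanol in embryoid bodies, and a trended and robust variance called those 3, PGLS and TXNRD1. Median centring, which lowers all embryoid body values with ethanol, called 20 of the 36 lower. The median signal of the arrays and the summed signals of the mesenchyme and fetal liver markers given above were also higher in embryoid bodies with ethanol. Their part in these values was not tested.

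In undifferentiated cells ethanol again gave no call among the 36 genes, where 0.00711% of all genes were called. An unadjusted p under 0.05 by limma was found for 1 of the 36, and for 986 of all 14072 genes. The median change was -0.03, against 0.02 over all genes. Arrays did not overlap for 6 genes lower and 3 higher, where 12.1% and 15.4% of all genes showed this. The gene with the smallest p was PGLS, with signals of 2630 and 2512 with ethanol and 2951 and 3020 without, a change of -0.22 ± 0.08 (adjusted p = 0.653). TXNRD1 followed, at 5623 and 5248 with ethanol and 4786 and 4898 without, a change of 0.17 ± 0.08 (adjusted p = 0.744). SOD3 was at 0.75 ± 0.43, PRDX3 at -0.12, KEAP1 at -0.10 and TXN at -0.10, and for SOD3 the arrays overlapped. Group medians ran from -0.06 for pentose phosphate enzymes and NRF2 regulators to 0.16 for the superoxide dismutases and catalase.

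**Figure D4:**
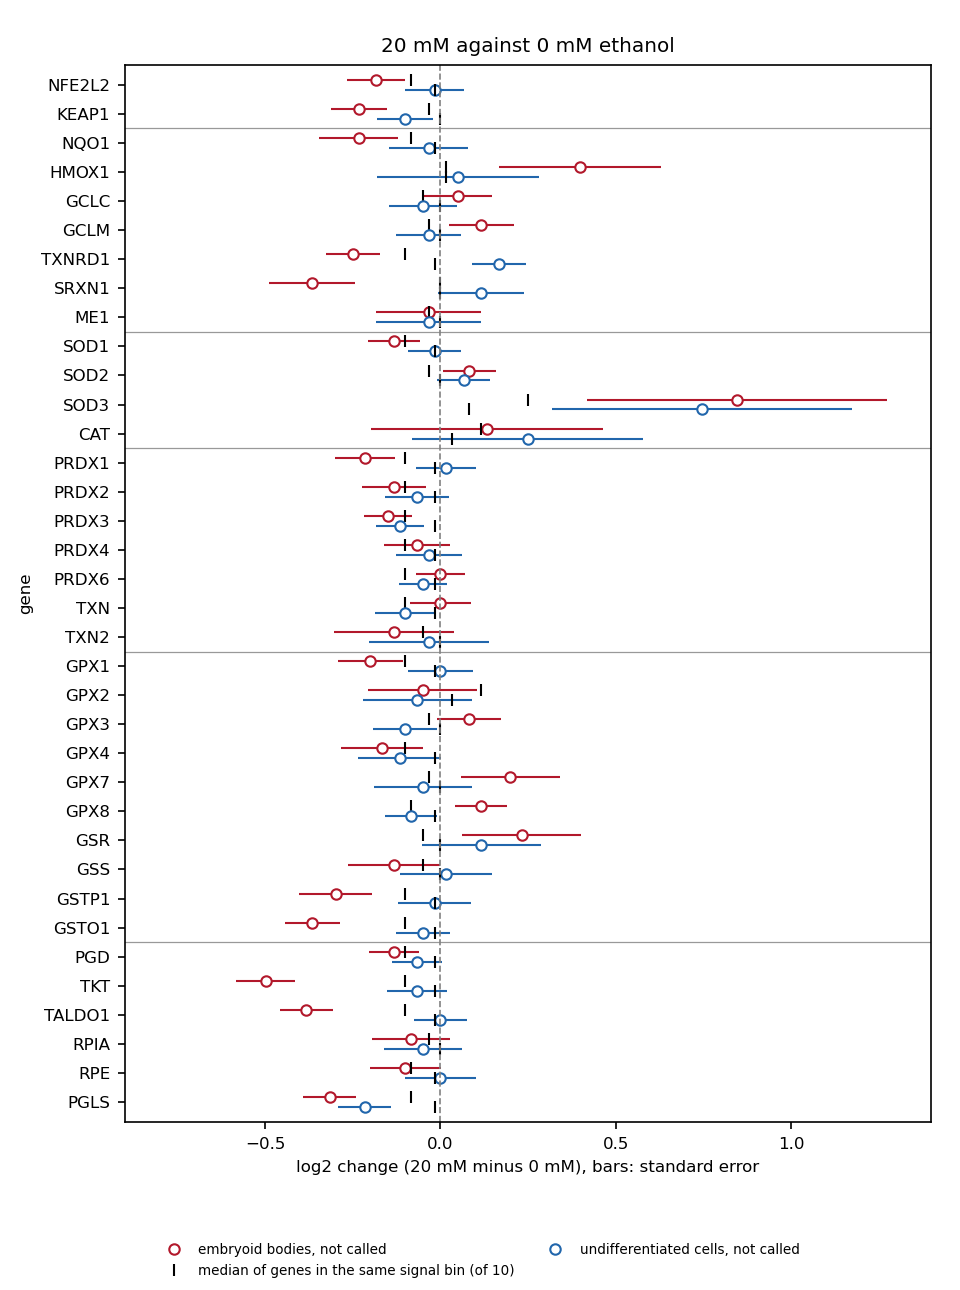
Log2 change of each of the 36 genes with 20 mM relative to 0 mM ethanol, in embryoid bodies (red) and undifferentiated cells (blue), with standard errors; open points did not pass and vertical ticks mark the median of all genes in the same signal bin (of 10). TKT lies lowest in embryoid bodies at -0.50, and SOD3 has the widest errors.

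The interaction of stage and ethanol, taken as the embryoid body change less the undifferentiated one, passed for no gene, where 0% of all genes were called. An unadjusted p under 0.05 by limma was found for 5 of the 36, and for 1828 of all 14072 genes. The smallest p belonged to TXNRD1, with a difference of -0.42 ± 0.11 (adjusted p = 0.295), whose signals were 4365 and 4074 with ethanol and 5129 and 4898 without in embryoid bodies. In undifferentiated cells they were 5623 and 5248 with ethanol and 4786 and 4898 without. Of the 36 genes TXNRD1 was the one whose arrays moved in opposite directions in the stages without overlap, as 6.26% of all genes did. TKT followed at -0.43 ± 0.12, TALDO1 at -0.38 ± 0.11, GSTO1 at -0.32 ± 0.11, SRXN1 at -0.48 ± 0.17 and PRDX1 at -0.23 ± 0.12 (adjusted p = 0.307, 0.312, 0.344, 0.356 and 0.464). For all 6 pentose phosphate genes the difference was negative by the reported probe set, with a median of -0.10, and -0.02 relative to genes of like signal. No difference between the stages in the ethanol response was therefore detectable.

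Other genes of these pathways, described by counts, also moved in both directions between the stages, and none was called for ethanol. Of 9 tested NRF2 partners and inhibitors, 2 rose and 2 fell at 20 mM and 3 rose and 3 fell at 0 mM. BACH2, a repressor that competes at antioxidant elements, rose by 1.54 at 0 mM, and NFE2L3, a relative of NFE2L2, fell by 1.43. Of 14 further NRF2 targets 4 rose and 6 fell at 20 mM and 5 rose and 6 fell at 0 mM. The aldo-keto reductases AKR1B10 and AKR1C1 rose at 0 mM by 1.94 and 1.31 and the quinone reductase NQO2 fell by 0.68. AKR1B10 had a mean signal of 71.61 in undifferentiated cells at 0 mM, near the array medians of 69.18 and 70.79, so the size of its change is uncertain. Of 17 further thioredoxin and glutaredoxin genes 6 rose and 9 fell at 20 mM, and 3 rose and 9 fell at 0 mM, where the mitochondrial thioredoxin reductase TXNRD2 fell by 1.43 and the glutaredoxin GLRX by 0.85.

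Of 22 further glutathione genes, 5 rose and 10 fell at 20 mM and 5 rose and 9 fell at 0 mM. At 0 mM the microsomal transferase MGST2 rose by 1.64 and the transferase GSTM3 by 1.20, while CBS and CTH, which convert homocysteine into cysteine, fell by 1.48 and 1.43 and the glutathione-degrading CHAC2 by 1.46. Of 9 further pentose phosphate genes, 3 rose and 3 fell at each dose. The phosphoribosyl pyrophosphate synthetases PRPS2 and PRPS1 fell at 0 mM by 1.16 and 0.75, and H6PD, which runs the oxidative steps in the endoplasmic reticulum, rose by 0.55. These counts stand against the 52.8% of all genes called at 0 mM and 56.3% at 20 mM.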

How the data were processed

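The deposited values are log10 array signals with 2 decimals on 54675 probe sets, from -1.46 to 4.61. Per the submitters' processing notes the authors used RMA, with no version given. A trimmed mean of 500 to 500.1 on every array after removing 2% at each end, and values below 0, are the form of globally scaled MAS 5 signals, so which method the authors applied is not settled. The log10 values were multiplied to the log2 scale and not normalised further.

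Probe sets were named from the platform annotation with symbols updated by gene ID: 41097 named 1 gene, 1801 several and 11777 none. Genes with at least 2 arrays above the array's median were tested with limma 3.58.1 (R 4.3.3). The fit held 1 mean per group and used all 8 arrays. It left 4 residual degrees of freedom, to which the prior added 1.81, with Benjamini-Hochberg adjustment over 14072 genes at 0.05. The fit was tested on data simulated for ethanol in embryoid bodies over 14072 genes, where it recovered 57.6% of log2 changes of 1 and 18.2% of changes of 0.5, with 5.17% of its calls false. Medians of genes in the same bin (of 10) of mean signal served as background.

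Changes are given in full for called genes (at most 12 per direction and stage comparison, by p) and for the 6 smallest p per ethanol comparison; the other genes are described by signals, and further values were picked to describe groups. The gene set and all lists were chosen with earlier results of these data known. Alternatives were the filter, the probe set rule, 3 scalings, the variance model, a replicate block, the compared groups alone and leaving out each array. Like-lettered arrays were checked for pairing: their deviations correlated by -0.0255 to 0.0493, so the letters do not pair them.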

Additional observations from a re-analysis of the deposited data

Results flagged for a closer look

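TXNRD1, the cytosolic thioredoxin reductase, moved in opposite directions with ethanol in the stages, without overlap of the arrays in either. It was lower in embryoid bodies with ethanol (4365 and 4074 with, 5129 and 4898 without) and higher in undifferentiated cells with ethanol (5623 and 5248 with, 4786 and 4898 without). The difference of the changes was -0.42 on the log2 scale, with adjusted p = 0.295 by limma, and 6.26% of all tested genes showed such an opposite movement.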

How the results depend on the processing

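Counts of called genes for stage were 16 to 28 at 0 mM and 17 to 29 at 20 mM over the alternatives that kept all 8 arrays or the compared groups. For ethanol in embryoid bodies the count of 0 became 3 with the 75th percentile filter, 5 with a trended and robust variance and 20, all lower, with median centring, where the counts over all genes were 477, 959 and 3879 against 10 in the reported fit. Cyclic loess left 17 genes called at 20 mM, 9 higher and 8 lower, against 8 and 18 as reported. Median centring gave 4 higher and 25 lower at 20 mM and 5 and 23 at 0 mM, and quantile normalisation 9 and 14 at 20 mM and 8 and 11 at 0 mM. The median of all genes moved under median centring by -0.42 for stage at 20 mM, -0.28 for stage at 0 mM, -0.27 for ethanol in embryoid bodies and -0.13 in undifferentiated cells, and quantile normalisation moved it by -0.11 for stage at 20 mM. Leaving out 1 array gave 18 to 23 calls at 20 mM, 15 to 21 at 0 mM and 0 for ethanol. The replicate block, for which the pairing has no basis, gave 26 calls at 20 mM, 19 at 0 mM and 0 in each ethanol comparison. With the mean of all probe sets, TXNRD1 turned to 0.083 for ethanol in embryoid bodies, -0.34 in undifferentiated cells and 0.42 for their difference, where its second probe set had a signal of 6.17. PRDX3 turned to 0.18 for stage at 20 mM, 0.16 at 0 mM and 0.0332 for ethanol in undifferentiated cells, where PGLS turned to 0.0457, and PGD turned to 0.0277 for stage at 0 mM. Median centring turned PRDX4 to -0.13 at 20 mM and GPX8 to -0.0498 at 0 mM. In all, 927 values of named genes kept direction and side of the threshold, 57 lost the call, 14 gained one and 10 reversed. The 7 stage calls given in the text beyond these named genes (GSR at 0 mM; KEAP1, TXNRD1, SOD2, PRDX2, GPX4 and GSTP1 at 20 mM) held under 5 to 16 of 18 alternatives.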

Other observations

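Other probe sets of the same genes gave a partial check. Of 24 with signals above the array median on all 8 arrays, 20 had the sign of the reported probe set for stage at 20 mM and 4 the opposite sign, and at 0 mM these were 18 and 2. For ethanol in embryoid bodies 13 shared the sign and 8 did not, and in undifferentiated cells 13 and 9. The widest disagreements at 0 mM, chosen after the values were seen, were a PRDX2 probe set of mean signal 437.8 at 1.59 (reported: -0.23) and a PGLS probe set of mean signal 237.8 at 1.20 (reported: 0).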
